A study of Bos taurus with 32 samples.

Results

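Repeat breeder (RB) cows were compared with non-RB cows in the intercaruncular (ICAR) endometrium of the contralateral uterine horn, the horn on the side away from the ovary that carried the corpus luteum. The comparison used every array that the labels place in this compartment, 4 of RB cows and 4 of non-RB cows, which are 8 of the 32 single-colour Agilent arrays of the study. The animals were non-lactating Japanese Black cows, sampled after slaughter on cycle Day 15 (Day 0 being estrus), in the luteal phase. RB cows showed estrous behaviour and had a uterus and ovaries judged healthy by palpation, but had not conceived after repeated inseminations, and their cycles were not always regular. Non-RB cows, labelled normally fertile, had conceived, and their pregnancy was then ended with cloprostenol, a prostaglandin F2α analogue, and followed by normal cycles. The groups therefore also differed in a recent pregnancy and its induced end, and these cannot be told apart from fertility here. Neither group carried a conceptus when sampled. Each array held RNA of 1 cow, so p-values measured the spread between cows.

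ICAR endometrium is the part of the ruminant uterine lining that holds the glands. In the luteal phase, under progesterone, these glands secrete histotroph, the mixture of proteins, lipids, sugars and ions that feeds the conceptus before it attaches. The caruncles (CAR), by contrast, are aglandular and form the maternal side of the placentomes. Around the sampled day the endometrium of a non-pregnant cow prepares to release prostaglandin F2α, which ends the life of the corpus luteum. In pregnancy, interferon tau from the conceptus prevents this.

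Most probes discussed below are named by their gene. The probes that the results turned on most are shown here by the first 30 of their 60 bases, 5′ to 3′, because the array files name several of them only by a sequence tag. The genes PIPOX, GSTA3 and KLHL24 were assigned through the probe that the study lists for them. The LTF sequence was printed on the array under 2 probe names. The tag BE667253 has no gene name in the tables used here.
PIPOX (ABR8834): gcattcagatgaaaccgaagcaggagcatc
GSTA3 (ABR3074): tctttccgatttccctctgctaaaggaatt
KLHL24 (ABR6738): ggactgaccaaggcaatatactgttatgat
LTF (ABR17 and A_73_116655): ctctcccttcctgaagtcggatttttgcca
BE667253 (ABR4939): aaagccacaggcgcccacatacgcctaaag

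Before any comparison, 1 of the 8 arrays stood apart. Non-RB replicate 1 had the lowest 75th percentile of spot intensity, 1165 units against 4698 on the brightest array, and the fewest spots well above background, 74.3% against 79.4% to 85.7% on the other 7. It carried 100 spots that the scanner software marked as outliers, against 0 to 6 elsewhere. The array design repeats a probe of GAPDH, a glycolytic enzyme, 100 times. These copies had an SD of 0.87 log2 units on non-RB replicate 1 and of 0.15 to 0.18 on the other 7. Correlation across probes between any pair of the 8 arrays ran from 0.928 to 0.992, and its lowest value among the other 7 was 0.967. The counts and the differences of genes between RB and non-RB cows are therefore given over 8 arrays and over the 7 without non-RB replicate 1, while levels, slides and other compartments are given with it unless stated. Levels are log2 intensities relative to the 75th percentile of their own array, so 0 is a bright spot and values near -8 lie at the background on most arrays. The lowest well-measured signal was -6.36 on non-RB replicate 1 and -8.41 to -7.38 on the other 7.

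**Figure D1:**
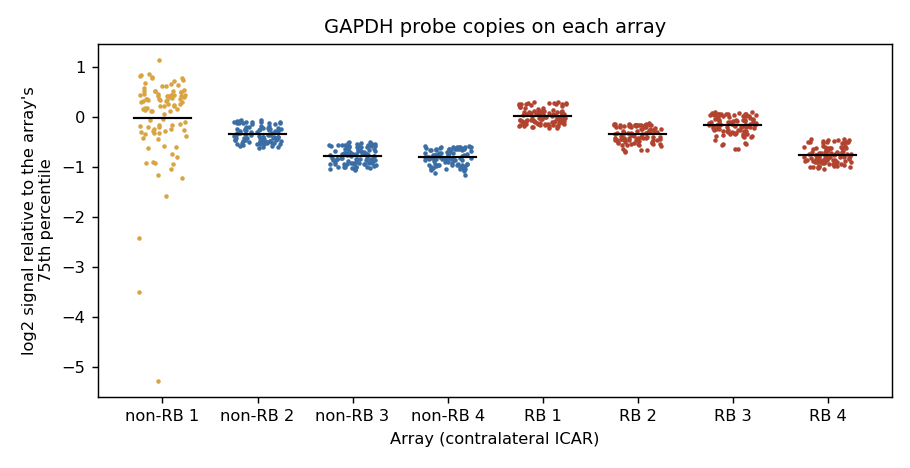
Log2 level of the 100 copies of the GAPDH probe on each of the 4 non-RB and 4 RB arrays, 1 point a copy. The copies of non-RB replicate 1 spread with an SD of 0.87, and those of the other 7 arrays lie close together with SDs of 0.15 to 0.18.

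Over 8 arrays, no probe passed the test between RB and non-RB cows. Of 12980 probes tested with limma and Benjamini-Hochberg adjustment, 0 had an adjusted p under 0.05 (0%), and the smallest adjusted p was 0.9998. The methods' t-test called 0 probes after the same adjustment and 262 at an unadjusted p under 0.05. With limma 208 probes had an unadjusted p under 0.05, 91 of them higher in RB (0.701%) and 117 lower (0.901%). A uniform distribution of p-values would have put 649 probes there. Groups did not overlap at 87 probes higher in RB (0.67%) and 105 lower (0.809%). Without non-RB replicate 1, 1 of 12941 probes passed (0.00773%), the tag BE667253. Groups did not overlap at 265 probes higher in RB (2.05%) and 201 lower (1.55%). Here 315 probes had an unadjusted p under 0.05 against 647 for uniform p-values, 201 higher in RB (1.55%) and 114 lower (0.881%). The methods' t-test over 7 arrays called 0 probes after adjustment and 344 before it. Of the probes under an unadjusted 0.05, 122 were shared between the fits over 8 and 7 arrays. Leaving out the uneven array lowered the median standard error of a log2 difference from 0.34 to 0.28, and the median SD among non-RB arrays went from 0.49 to 0.27. For the genes named below other than BE667253, the adjusted p was 0.9998 over 8 arrays and 0.997 or above over 7, so their differences are given as values and not as calls.

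**Figure D2:**
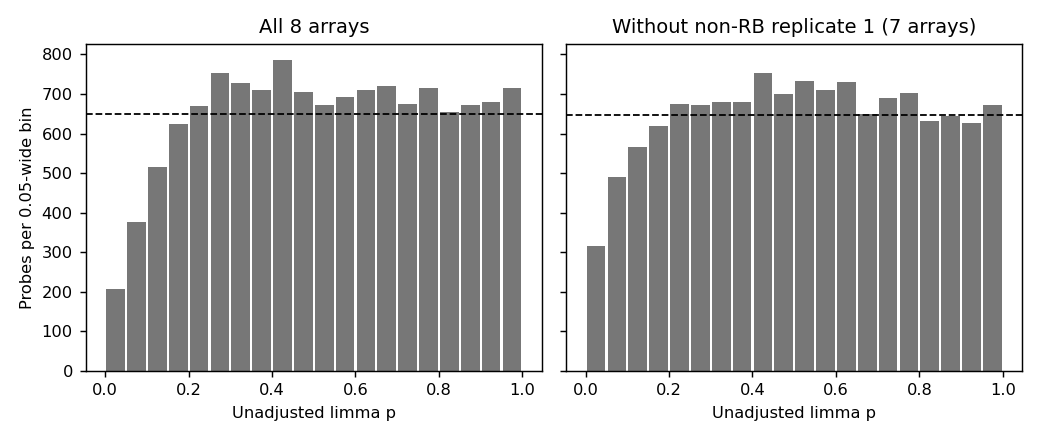
Histograms of unadjusted limma p-values between RB and non-RB arrays over all tested probes, for 8 arrays (12980 probes) and for 7 arrays (12941 probes), with a dashed line at the height of a uniform distribution. The bin of smallest p-values stays under the dashed line in both.

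Over 7 arrays the tag BE667253 was the 1 probe that passed, and it was lower in RB cows. Its levels in non-RB replicates 1 to 4 were -8.66, -7.44, -7.47 and -7.12, and in RB replicates 1 to 4 they were -9.77, -9.56, -9.46 and -9.66. Of the non-RB arrays 3 of 4 read it well above background, and no RB array did, so its RB level is only an upper bound. The tag met the background filter only through the non-RB group. Its SE and adjusted p thus set non-RB signal against background readings of RB cows. The fitted log2 difference was -1.94 (SE 0.33, adjusted p 0.9998) over 8 arrays and -2.27 (SE 0.18, adjusted p 0.0311) over 7. Against the background level of the RB arrays, the non-RB level was at least 1.14-fold higher over 8 arrays and at least 1.43-fold higher over 7. The call over 7 arrays did not hold under most alternatives. The smallest adjusted p of any probe was 0.0613 with quantile scaling, 0.0770 with a removed array surface and 0.110 with the methods' t-test. It was 0.268 with the scan session (the month of the scan date) as a block, 0.928 with the slide and 0.782 with the replicate number. With normexp background correction it was 0.9998, and with all 32 arrays in 1 fit 0.9997. With only probes well above background on every array, a filter that left this tag out, it was 0.995. When a further array was left out of the 7, the call was kept in 1 case, without non-RB replicate 3, and lost in the other 6, with a smallest adjusted p of 0.0874 to 0.378.

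Among genes with higher values in RB cows, PIPOX stood first among those the study lists for this compartment. From the study's longer list, the 20 known genes with the largest changes, on 21 probes, were taken. The study chose them on these same arrays, so their direction and their separation are no independent evidence. Of the 21 probes 10 were higher in RB and 11 lower, and groups did not overlap at 13 over 8 arrays and at 20 over 7, a count that the study's choice of these genes bears on and that is set beside 0.67% higher and 0.809% lower of all probes over 8 arrays and 2.05% and 1.55% over 7. An unadjusted p under 0.05 was found for 15 over 8 arrays and for 21 over 7, beside 1.6% and 2.43% of all probes. The study's choice of these genes bears on this count too. An adjusted p under 0.05 was found for 0 in either.

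PIPOX is a peroxisomal oxidase of sarcosine and pipecolic acid, which makes hydrogen peroxide. On probe ABR8834 its levels in non-RB replicates 1 to 4 were -5.86, -5.75, -7.96 and -7.46, and in RB replicates 1 to 4 they were -4.44, -3.0, -5.26 and -2.95. Every RB array lay above every non-RB array, and the gap between RB replicate 3 and the nearest non-RB array was small. The log2 difference was 2.85 (SE 0.68) over 8 arrays, a 7.19-fold higher mean, with a two-sided exact permutation p of 0.0286, the smallest that 4 against 4 arrays allow. Without non-RB replicate 1 it was 3.14 (SE 0.72). All 4 RB arrays read this probe well above background, but 3 of 4 non-RB arrays did, or 2 of 3 over 7 arrays. The fold therefore rests partly on a background reading. A second PIPOX probe, ABR9851, read -6.15, -6.04, -8.10 and -8.08 in non-RB replicates 1 to 4 and -6.29, -4.25, -6.15 and -4.46 in RB. Here RB replicates 1 and 3 lay just below the highest non-RB arrays, so the groups overlapped, and the log2 difference was 1.80 (SE 0.67) over 8 arrays and 2.12 over 7. Only 2 of 4 non-RB arrays read ABR9851 well above background, against 4 of 4 RB arrays. Both probes had 2 high and 2 low RB cows, and the high ones were replicates 2 and 4.

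GSTA3, an alpha-class glutathione S-transferase that conjugates reactive compounds and takes part in steroid synthesis, depended on the uneven array. Non-RB replicates 2 to 4 read -7.09, -5.74 and -6.57, non-RB replicate 1 read 0.13, and RB replicates 1 to 4 read -4.83, -1.67, -3.61 and -4.83. The uneven array thus had the highest level of all 8, and the other non-RB arrays were the 3 lowest. The log2 difference was 1.08 (SE 1.51) over 8 arrays and 2.73 (SE 0.77, 6.63-fold) over 7, where groups did not overlap. CNGA1, a subunit of a cyclic nucleotide-gated cation channel, behaved likewise, with a log2 difference of 2.04 (SE 0.92) over 8 arrays and of 2.76 (SE 0.81) over 7. Its non-RB replicate 1, at -3.25, was inside the RB range of -4.61 to -1.47, and the other non-RB arrays, at -5.00, -7.46 and -5.84, were below it. LY6D, a surface protein of the Ly6 family, went from 0.82 to 1.33 between 8 and 7 arrays, the glycerol kinase family member GK5 from 0.61 to 1.14, and SH3BGRL2 from 0.48 to 0.93.

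Other genes higher in RB cows did not turn on the uneven array. KLHL24, a substrate adaptor of a ubiquitin ligase, read -1.27, -1.70, -2.41 and -0.97 in non-RB replicates 1 to 4 and -0.76, 0.19, -0.40 and -0.27 in RB. Its groups did not overlap, with a log2 difference of 1.28 (SE 0.35) over 8 arrays and 1.39 over 7. MIF, a cytokine that acts on macrophages and T cells, read -3.12, -4.01, -3.55 and -4.35 in non-RB and -2.92, -1.53, -2.23 and -2.74 in RB, a difference of 1.40 (SE 0.38) and, over 7 arrays, of 1.61. ZNRD1, the subunit of RNA polymerase I now called POLR1H, read -1.85, -0.81, -1.98 and -1.16 in non-RB and -0.77, -0.13, 0.68 and 0.94 in RB. Its lowest RB and highest non-RB arrays nearly touched, and the difference was 1.63 (SE 0.43) over 8 arrays and 1.5 over 7. KLK10, a secreted kallikrein-type protease, had a difference of 1.09 (SE 0.34) over both 8 and 7 arrays, with RB levels from -2.89 to -1.33 above non-RB levels from -3.52 to -3.0.

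The named gene with the highest fitted difference was PRSS2, a pancreatic-type trypsin. It read -4.50, -6.14, -8.14 and -4.43 in non-RB replicates 1 to 4 and -3.63, -4.17, 3.20 and -2.25 in RB. A single cow, RB replicate 3, was far above the rest, and the other RB arrays lay at -4.17 to -2.25, above the highest non-RB level of -4.43. The log2 difference of 4.09 (SE 1.57) over 8 arrays became 4.52 over 7, and it was 2.45 without RB replicate 3. PRSS2 was well above background on 4 of 4 RB arrays and 3 of 4 non-RB arrays. Trypsin genes are a family of close copies, and whether this probe separates them was not tested. CHORDC1, a chaperone partner of HSP90, had a difference of 1.52 (SE 0.62) over 8 arrays and of 0.85 over 7, since non-RB replicate 1 read -5.34 and the other non-RB arrays -2.43 to -2.81. SERPINA3, an inhibitor of serine proteases, had a difference of 1.67 (SE 0.54) over 8 arrays and of 1.65 over 7, and 3 of 4 RB arrays but 1 of 4 non-RB arrays read it well above background. With normexp background correction its difference changed sign, to -0.38, where the median of all probes was itself -0.20.

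**Figure D3:**
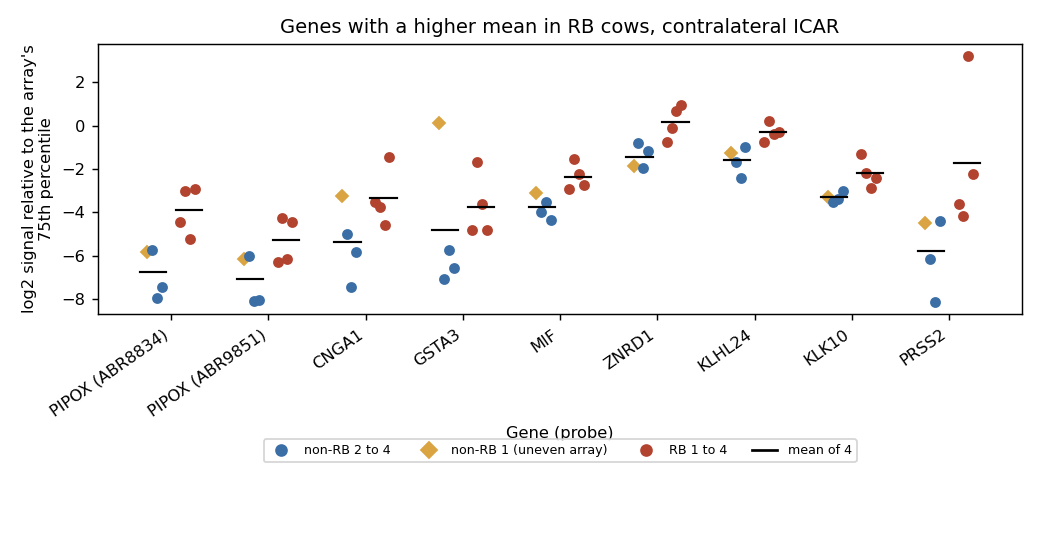
Level on each array (log2 intensity relative to the array's 75th percentile) of 9 probes with higher means in RB cows, with non-RB and RB arrays side by side and non-RB replicate 1 marked. For GSTA3 the marked array, at 0.13, lies above all RB arrays, and PRSS2 of RB replicate 3 stands alone at 3.20.

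Of the genes with lower values in RB cows, LTF encodes lactoferrin, an iron-binding antimicrobial protein of glandular secretions. On probe A_73_116655 it read 3.68, 2.28, 2.77 and 1.81 in non-RB replicates 1 to 4 and 0.05, 0.76, 0.40 and 1.81 in RB. The uneven array was the highest, and RB replicate 4 reached the level of non-RB replicate 4, so the groups touched without overlapping. The log2 difference was -1.88 (SE 0.49, exact permutation p 0.0286) over 8 arrays and -1.53 (SE 0.43) over 7. The other LTF probe has the same sequence and is a technical repeat, with a difference of -1.68 (SE 0.44) over 8 arrays and -1.41 over 7. In these bulk samples, fewer gland cells and less RNA per gland cell cannot be told apart. The mean level of gland markers was also lower in RB, as given below. RB replicate 3 had the lowest gland level, at -4.32, and the other RB arrays, at -2.43 to -1.46, overlapped the non-RB range. The part of gland markers in the LTF values was not tested.

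CFTR, the chloride and bicarbonate channel of epithelia, read 3.06, 2.87, 2.66 and 2.91 in non-RB replicates 1 to 4 and 2.59, 1.30, 1.12 and 0.96 in RB. Non-RB cows lay within a narrow band, 3 RB cows lay well below it, and RB replicate 1 was just under it. The difference was -1.38 (SE 0.36) over 8 arrays and -1.32 over 7. SLC2A1, the glucose transporter GLUT1, read 3.66, 3.43, 3.51 and 2.92 in non-RB and 2.30, 2.24, 2.67 and 2.17 in RB. All RB arrays were below all non-RB arrays, and the log2 difference of -1.04 (SE 0.24) over 8 arrays, a 2.05-fold lower mean, was -0.94 over 7. SCD, the desaturase that makes monounsaturated fatty acids, read 1.35, 0.86, 1.01 and 1.31 in non-RB and 0.62, -0.08, -0.14 and -0.11 in RB. RB replicate 1 was nearer to the non-RB range than the other RB arrays, and the difference was -1.06 (SE 0.25) over 8 arrays and -0.98 over 7.

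The study's list also held IFIH1, KCNA2, MARCH3, GFRA1, SLC30A3 and FAM167A, all with lower RB means. IFIH1, the cytoplasmic RNA sensor MDA5, read -2.01, -1.80, -0.75 and -3.77 in non-RB replicates 1 to 4 and -3.90, -4.50, -4.22 and -3.75 in RB. Its groups overlapped, since non-RB replicate 4 was as low as the highest RB array, and the difference was -2.01 (SE 0.56, exact permutation p 0.0571) over 8 arrays and -1.99 over 7. The potassium channel gene KCNA2 had a difference of -1.63 (SE 0.43) over 8 arrays and of -1.79 over 7 with groups apart, RB levels running from -5.98 to -4.03 and non-RB levels from -3.94 to -2.96. MARCH3, a membrane-bound ubiquitin ligase, had RB levels from -4.54 to -3.36 and non-RB levels from -2.92 to -2.47, a difference of -1.32 (SE 0.31) over 8 arrays and of -1.31 over 7. GFRA1, a receptor of glial cell line-derived neurotrophic factor, had a difference of -1.09 (SE 0.42) over 8 arrays and of -1.32 over 7. SLC30A3, a zinc transporter, had one of -0.95 (SE 0.49) that was -1.35 over 7 arrays. FAM167A was measured by a pair of probes of different sequence, 1 of them under its older name C8H8orf13, and their differences were -1.56 (SE 0.42) for C8H8orf13 and -1.74 (SE 0.44) for FAM167A over 8 arrays and -1.33 and -1.44 over 7, with groups apart on both.

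Dim genes completed the set with the lowest fitted differences among named genes whose groups did not overlap. TYR, the tyrosinase of melanin synthesis, was well above background on 2 non-RB arrays, 1 of them the uneven array, and on no RB array. Its fitted difference of -2.86 (SE 0.59) is therefore replaced by a bound. The non-RB level was at least 2.0-fold higher over 8 arrays and at least 1.49-fold higher over 7. It had too few arrays above background to be tested over 7. ETNPPL, an enzyme that breaks down phosphoethanolamine, read -5.84, -6.65, -6.85 and -6.10 in non-RB and -8.91, -7.99, -10.22 and -8.13 in RB. The groups were well apart, but only 1 RB array was well above background, and the difference was -2.45 (SE 0.49) over 8 arrays and -2.28 over 7. PRL, the hormone prolactin, had a difference of -2.31 (SE 0.60) over 8 arrays and of -1.83 over 7, its highest level, -3.55, being that of the uneven array. It was well above background on 3 of 4 RB arrays.

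**Figure D4:**
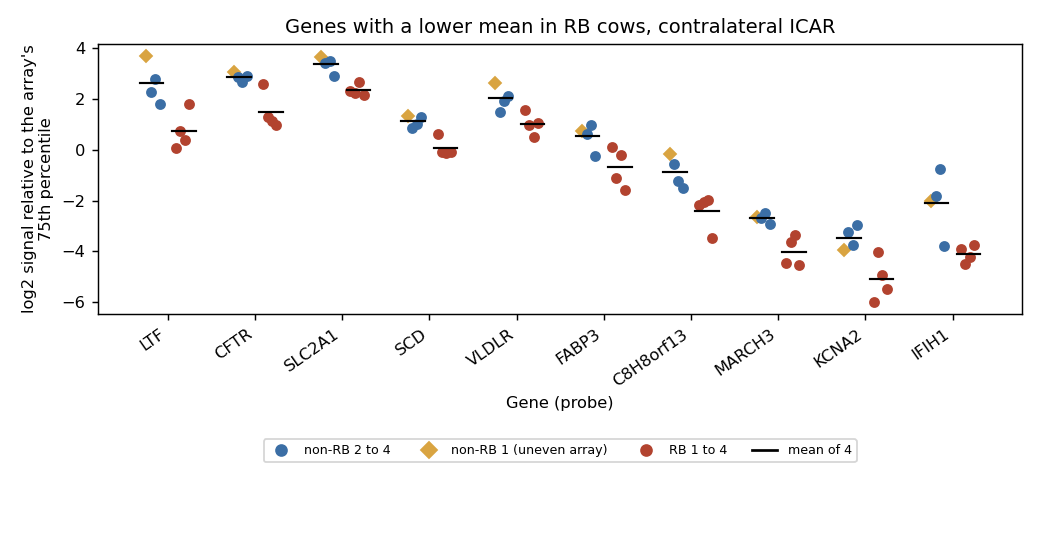
Level on each array (log2 intensity relative to the array's 75th percentile) of 10 probes with lower means in RB cows, with non-RB and RB arrays side by side and non-RB replicate 1 marked. RB and non-RB points are apart for SLC2A1, SCD, CFTR and MARCH3 and touch for LTF, and IFIH1 of non-RB replicate 4 lies among the RB points.

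The gene lists for this tissue were described by counts and medians, beside all probes, of which 6842 were higher and 6138 lower in RB with a median log2 difference of 0.02 over 8 arrays and 0.04 over 7. Of all probes, 1.6% had an unadjusted limma p under 0.05 over 8 arrays and 2.43% over 7. The counts of each list below stand beside these shares. None of the lists had a member with an adjusted p under 0.05. The 16 tested probes of prostaglandin enzymes and receptors held 0 with an unadjusted p under 0.05 in either direction over 8 or 7 arrays, and their median difference was 0.08 and 0.10. PTGS2, the cyclooxygenase that starts prostaglandin synthesis, had a mean level of 1.60 ± 0.66 (SD, n = 4) in RB and 2.13 ± 0.64 in non-RB on probe ABR78, a difference of -0.54 (SE 0.42) that was -0.31 over 7 arrays. Its other probe, ABR7087, was well above background on no array. AKR1B1, a prostaglandin F synthase of the bovine endometrium, was abundant in both groups, at 4.92 ± 0.77 (SD, n = 4) in RB and 4.53 ± 0.37 in non-RB, a difference of 0.39 over 8 arrays and 0.24 over 7. HPGD, which inactivates prostaglandins, differed by -0.42 (SE 0.43) over 8 arrays and by -0.18 over 7. PTGFR, the prostaglandin F receptor, was well above background on no array.

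Among receptors for steroids and oxytocin, 1 of 11 tested probes had an unadjusted p under 0.05 over 8 arrays, PGR, the progesterone receptor, and the list median was 0.09 over 8 arrays and 0.26 over 7. It read -0.71, -0.59, -0.54 and -0.38 in non-RB replicates 1 to 4 and -0.27, -0.09, 0.52 and -0.20 in RB. The RB arrays were all higher, by a mean of 0.54 (SE 0.24, unadjusted p 0.0498 with limma) over 8 arrays and 0.49 over 7, where the unadjusted p was 0.0709. Over 7 arrays the 1 probe of the list under 0.05 was instead PAQR6, of the membrane progestin receptor family, at -0.71 (unadjusted p 0.0261 with limma) against 0.04 over 8 arrays. OXTR, the oxytocin receptor, varied far more between cows than between groups: -0.18, -1.63, -4.21 and 0.27 in non-RB and 0.45, -1.44, -3.64 and -0.58 in RB, with a difference of 0.14 (SE 1.11) over 8 arrays and of 0.55 over 7. Each group held 1 cow with a low OXTR level, replicate 3 in both. ESR1, the main estrogen receptor, differed by 0.34 (SE 0.54) on 1 probe and by 0.09 (SE 0.51) on the other, and by 0.80 and 0.55 over 7 arrays. The first probe was well above background on 6 of 8 arrays and the other on 2, so these values rest partly on background readings.

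Of 34 tested histotroph and gland secretion probes, 14 were higher and 20 lower in RB, with a median of -0.07 over 8 arrays and -0.11 over 7. The 3 with an unadjusted p under 0.05 over 8 arrays were all lower, both LTF probes and IGF2R, and over 7 arrays the 2 that were under 0.05 were the LTF probes, which have 1 sequence. IGF2R, the receptor that carries mannose 6-phosphate proteins and clears IGF2, read 1.80, 1.26, 1.30 and 1.19 in non-RB and 0.81, 0.63, 1.02 and 0.97 in RB, a difference of -0.53 (SE 0.23) over 8 arrays and of -0.39 over 7 (unadjusted p 0.0597 with limma). SERPINA14, the uterine milk serpin, ranged from -2.56 to 0.01 in non-RB and from -3.08 to -0.13 in RB, and its difference of -0.28 (SE 0.76) over 8 arrays, or 0.05 over 7, was within that spread. SPP1, the adhesion protein osteopontin, differed by 0.82 (SE 1.03) over 8 arrays and by 0.87 over 7, with RB levels from -6.94 to -1.26.

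SLC2A1 was the 1 probe with an unadjusted p under 0.05 among 23 tested transporters of glucose and amino acids, over 8 and over 7 arrays, of which 8 were higher and 15 lower in RB over 8. The list median was -0.19 over 8 arrays and -0.02 over 7. The sodium-glucose cotransporter SLC5A1 had a difference of -0.96 (SE 0.51) over 8 arrays and of -0.59 over 7, and SLC3A1, a cystine and basic amino acid transporter subunit, one of 0.41 (SE 0.23) and 0.38. In the lipid list of 27 tested probes, 2 had an unadjusted p under 0.05 and higher RB means over 8 arrays, or 1 over 7, and 3 had lower ones over 8 and 7. Lower were SCD, the lipoprotein receptor VLDLR at -1.03 (SE 0.32) over 8 arrays and -0.83 over 7, and the fatty acid binding protein FABP3 at -1.23 (SE 0.42) and -1.16. Higher were the thioesterase ACOT7 at 0.62 over 8 arrays and 0.57 over 7, and DGAT2, which makes triglycerides, at 1.10 and 1.16, where its unadjusted p over 7 arrays was 0.0622 with limma. The fatty acid synthase FASN differed by -0.13 (SE 0.21) and -0.15, and the list median was -0.13 over 8 arrays and -0.15 over 7.

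Epithelial ion and water channels held 1 probe with an unadjusted p under 0.05 over 8 arrays, CFTR, of 21 tested. The list median was -0.18 over 8 arrays and 0.07 over 7, so its sign changed with the uneven array. Over 7 arrays CNGA1, with a higher RB mean, was under 0.05 beside CFTR. CA2, a carbonic anhydrase, differed by -0.54 (SE 0.43) over 8 arrays and -0.39 over 7, and the potassium channel KCNK17 by -0.61 (SE 0.36) and -0.74. Zinc and iron handling genes had 0 of 15 tested probes with an unadjusted p under 0.05 over 8 arrays, a median of -0.19 and 11 lower members. Over 7 arrays 1 of them, SLC30A3, was under 0.05, and the median was -0.18. SLC11A2, an iron importer, differed by -0.58 (SE 0.45) over 8 arrays and -0.28 over 7, and SLC39A14, a zinc and iron importer, by 0.73 (SE 0.60), which was 0.08 over 7 arrays.

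In the list of glutathione and oxidative stress genes, 3 of 34 tested probes had an unadjusted p under 0.05 over 8 arrays, around a median of 0.08. Over 7 arrays 4 did, around 0.12. The shares of all probes were 1.6% and 2.43%. PIPOX on probe ABR9851 and GPX1, a glutathione peroxidase, had higher RB means, GPX1 by 0.67 (SE 0.27) over 8 arrays and 0.63 over 7, and GSS, the glutathione synthetase, had a lower one, by -0.55 (SE 0.22) and -0.58. Over 7 arrays GPX1 was not under 0.05 (unadjusted p 0.0537 with limma), and the 4 that were under it were PIPOX on ABR9851, GSTA3, GSS and the polyamine oxidase PAOX, which differed by -0.43 over 7 arrays and by 0.51 over 8. GSS levels in RB lay from -0.82 to -0.53 and in non-RB from -0.52 to 0.14, close but apart. Of the other glutathione transferases, GSTA2 differed by -0.38, GSTA4 by 0.06 and GSTT1 by 0.16 over 8 arrays, against 1.08 for GSTA3. Over 7 arrays they differed by -0.02, 0.12 and 0.20, against 2.73 for GSTA3. SOD1, the cytosolic superoxide dismutase, differed by 0.12 (SE 0.20) over 8 arrays and 0.11 over 7. Interferon response genes numbered 25 tested, with 13 higher, 12 lower and a median of 0.03 over 8 arrays and 0.02 over 7. IFI30, a lysosomal thiol reductase induced by interferon, was the 1 with an unadjusted p under 0.05 over 8 arrays, at -0.55 (SE 0.23) with groups apart, and it was at -0.48 over 7 (unadjusted p 0.0575 with limma). Over 7 arrays the 1 under 0.05 was EIF2AK2, the RNA-activated kinase PKR, higher in RB by 0.88 (unadjusted p 0.0153 with limma) against 0.49 over 8 arrays. MX1 differed by -0.71 (SE 0.32) over 8 arrays and -0.52 over 7, and RSAD2 by -0.66 (SE 0.40) and -0.30. ISG15, the ubiquitin-like protein used as a marker of early pregnancy in cattle, differed by -0.04 (SE 0.22) over 8 arrays and 0.02 over 7, as it read 0.54 ± 0.17 (SD, n = 4) in RB and 0.58 ± 0.26 in non-RB.

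The gland identity of the tissue was checked on its markers. Glandular epithelium had 6 marker probes, 5 of them well above background on all 8 arrays, while PAEP was on none. Their mean level, with PAEP included, was -0.84, -2.34, -2.27 and -1.92 in non-RB replicates 1 to 4 and -1.46, -2.43, -4.32 and -2.12 in RB. RB replicate 3 was thus the lowest and the uneven array the highest. The other RB arrays, at -2.43 to -1.46, overlapped the non-RB range of -2.34 to -0.84. The RB mean was lower by a log2 difference of -0.74 over 8 arrays and -0.41 over 7, and all 5 tested markers were lower in RB over 8 arrays, from SERPINA14 at -0.28 to FOXA2, a transcription factor needed for gland formation, at -1.27 (p 0.16), or -1.02 over 7 arrays. Without the uneven array SERPINA14, at 0.05, and PIGR, at 0.53, were instead higher in RB, while BPIFB1 was at -0.44. The median of the 5 over 7 arrays was -0.33. Against contralateral CAR, FOXA2 was 1.57 higher in ICAR, BPIFB1 2.01 and SPDEF 1.67, while SERPINA14 was 0.12 and PIGR 0.38 higher. Their adjusted p was 0.995, and of all 12985 probes 0 passed between these tissues. That fit had no term for the replicate number and included the uneven arrays, so it does not show that the tissues are alike.

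Markers of other cell types were averaged in the same way. General epithelial markers differed by -0.27 over 8 arrays and -0.06 over 7, with 9 of 9 probes well above background throughout and RB replicate 3 again the lowest, at -0.71 against 0.39 to 1.57 on the other arrays. Ciliated cell markers differed by -0.58 and -0.22, with RB replicate 3 at -6.63 and non-RB levels from -4.84 to -3.03. Over 8 arrays stroma differed by 0.15, smooth muscle by 0.29, endothelium by -0.04, macrophages by 0.06, T and NK cells by -0.14, neutrophils by -0.04 and red blood cells by -0.17. Over 7 arrays these were -0.03, 0.13, -0.14, -0.28, -0.29, 0.09 and -0.04, so the sign changed for stroma, macrophages and neutrophils. B and plasma cell markers differed by 0.41 over 8 arrays and 0.56 over 7, from -4.00 to -2.56 in RB and -4.45 to -2.38 in non-RB. None of the markers had an unadjusted p under 0.05 over 8 arrays. RB replicate 3, low in gland and ciliated markers, was also the cow with the high PRSS2 and the low OXTR of its group, and the part of tissue makeup in these values was not tested. Without RB replicate 3 LTF on probe A_73_116655 differed by -1.77, CFTR by -1.25, SLC2A1 by -1.14 and KLHL24 by 1.31.

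Arrays were spread over 5 slides, and slide and group were partly confounded. Slide 6 held non-RB replicate 3 with RB replicate 4, slide 8 held non-RB replicate 2 with RB replicate 1, and all other slides held 1 group of this compartment. Scan sessions, taken as months of the scan dates, were partly confounded too. Of these 8 arrays, session 1 held only non-RB replicate 1, and session 2 held only RB replicates 2 and 3. Within slides 6 and 8, PIPOX on probe ABR8834 differed by 5.02 and 1.31, KLHL24 by 2.14 and 0.94, MIF by 0.81 and 1.09, and GSTA3 by 0.91 and 2.25. ZNRD1 differed by 2.92 on slide 6 and by 0.04 on slide 8. For genes lower in RB, LTF differed by -0.96 and -2.23, SLC2A1 by -1.34 and -1.13, MARCH3 by -2.07 and -1.79, SCD by -1.11 and -0.24, and CFTR by -1.70 and -0.27. The signs were thus the same on both slides for all of these, with 1 cow per group and slide and no test. The second PIPOX probe differed by 3.64 and -0.25, so its sign changed.

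The same cows were also measured in the ipsilateral ICAR and in both CAR compartments, so these comparisons share cows and are set side by side without a test of their likeness. PIPOX on probe ABR8834 differed by 2.85 here, 2.73 in ipsilateral ICAR, 2.99 in contralateral CAR and 2.22 in ipsilateral CAR. KLHL24 differed by 1.28, 1.38, 1.84 and 1.39 in the same order, and ZNRD1 by 1.63, 1.26, 1.07 and 1.19. GSTA3 differed by 1.08 here and by 2.73 without the uneven array, and by 1.86, 3.49 and 3.83 in the other compartments. For LTF the values were -1.88 here and -0.24, -0.62 and -0.46 elsewhere. SLC2A1 differed by -1.04, -0.36, -0.54 and -0.59, SCD by -1.06, -0.59, 0.02 and -0.81, and CFTR by -1.38, -0.65, -0.61 and -1.17. Contralateral CAR has an uneven array of its own, non-RB replicate 2, with an SD of 1.32 across GAPDH copies. It lay on slide 1, as did non-RB replicate 1 of contralateral ICAR.

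Whether the RB difference itself differed between compartments was tested by interaction. Between the horns in ICAR, 0 of 12868 probes had an adjusted p under 0.05 (0%) with limma, and 140 had an unadjusted p under 0.05, or 196 without non-RB replicate 1. With the replicate number as a block, since same-numbered arrays of the horns deviated together, it was again 0 (0%), with a smallest adjusted p of 0.614 and 1019 probes under 0.05 unadjusted. Between ICAR and CAR of the contralateral horn, 0 of 12985 probes passed (0%), 36 were under 0.05 unadjusted, and both counts were made on arrays that included the uneven ones. Without both arrays of slide 1 it was again 0, with 34 of 12892 under 0.05. For LTF the interaction between horns was -1.65 (SE 0.83, p 0.065 and adjusted p 0.999 with limma), and p 0.0401 with the block. HPGD differed by -0.42 here, or -0.18 over 7 arrays, and by 1.37 (SE 0.42) in ipsilateral ICAR. Its interaction was -1.79 (SE 0.63, p 0.013 unadjusted with limma), with p 0.00283 under the block. ETNPPL had an interaction of -2.07 (SE 0.71) between horns, with a difference of -0.39 in ipsilateral ICAR, and p 0.0103 without the block and 0.00964 with it. BE667253 was too dim to be tested in any other compartment alone. For none of LTF, HPGD and ETNPPL was the RB difference in contralateral ICAR shown to differ from that of the other horn after adjustment, with or without the block. The interactions of these genes were fitted with non-RB replicate 1 included.

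**Figure D5:**
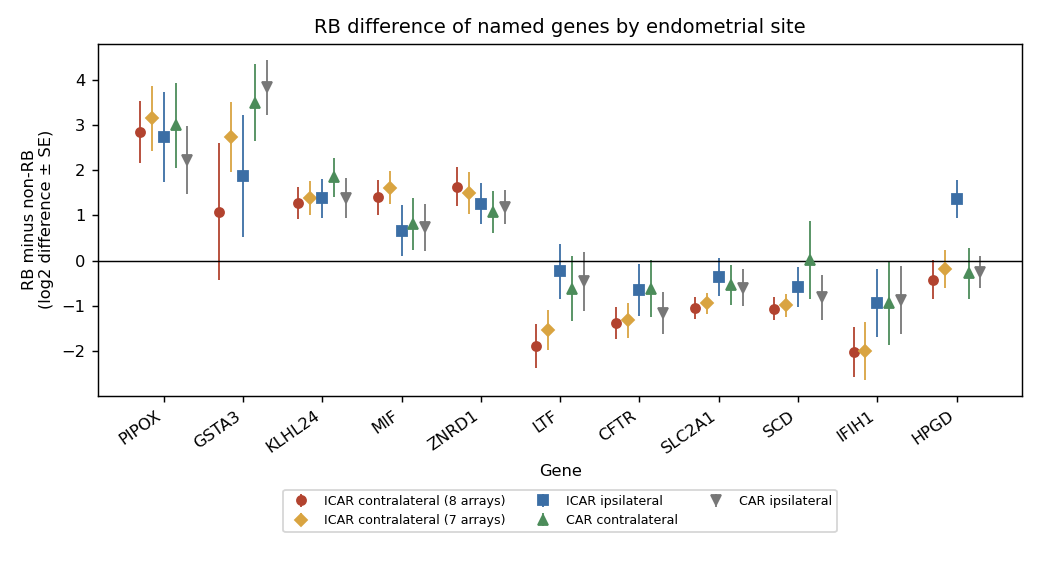
Log2 difference between RB and non-RB means with its standard error from limma, for 11 genes in the 4 compartments, with contralateral ICAR also drawn without non-RB replicate 1. PIPOX and KLHL24 lie above 0 in every compartment, the LTF point of contralateral ICAR, at -1.88, lies below its other compartments, and HPGD lies above 0 in ipsilateral ICAR.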

How the data were processed

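Endometrial RNA was labelled with Cy3 and hybridised to a custom bovine Agilent array of 15744 spots (15208 probes). The authors deposited Agilent Feature Extraction 9.5 output, in which each spot's processed intensity is background-subtracted and not normalized between arrays, so intensities were compared after scaling. The log2 table that the authors also deposited holds the same values after scaling to each array's 75th percentile, apart from a shift of 0.00420 to 0.0140 that is fixed within an array, and was used as an alternative. No authors' fold change or p-value entered the tests, but the choice of the listed genes rests on the order of the study's list.

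Here log2 processed intensity minus the array's 75th percentile was used, and spots marked as outliers were left out. Probes of the same sequence, such as the 100 GAPDH copies, were tested apart and averaged only as an alternative. Probes well above background on at least 2 arrays, or 4 for the interactions, with 3 values per group were tested with limma 3.58.1 in R 4.3.3. P-values were adjusted by Benjamini-Hochberg over all tested probes, and the exact permutation tests were two-sided. The procedure was tested on simulated data. Where a probe was not well above background on any array of a group, its fold is a bound ("at least"), taken per array against the higher of the lowest well-measured signal and the probe's own signal. The number of arrays limits the precision.

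Named genes were every probe passing adjustment and the 20 known genes with the largest changes in the study's longer list for this compartment. The 5 highest and 5 lowest symbols without overlap were added. So were up to 3 members per gene list with the smallest p, and receptors or secreted proteins that define a list. Further list members and markers were named after their values were seen. The genes and lists were chosen with earlier results of these data known. PIPOX (ABR8834), GSTA3, KLHL24, IFIH1, KCNA2, GFRA1 and MARCH3 were named through the study's probe list, others from the files or RefSeq gene tables. Of the probes, 8519 had no gene name.

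Groups and replicate numbers came from the labels. Same-numbered arrays of the horns in ICAR deviated together from their group means (correlation 0.318 to 0.634, over 0.1 in 8 of 8 pairs), and several also share a slide. RB and non-RB arrays of the same number in contralateral ICAR, which are of different cows, correlated at 0.11, -0.23, 0.15 and 0.41 for numbers 1 to 4. The correlations therefore cannot settle whether numbers pair the horns by cow. Alternatives covered filters, scaling, background correction, weights, blocks and leaving out each array.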

Additional observations from a re-analysis of the deposited data

Results flagged for a closer look

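In 5 of 120 groups of 4 arrays checked, 1 array stood apart from the other 3 by a gap of more than 0.829 of the whole range, and chance alone sets apart about 1 in 20 groups. The SD of GAPDH copies on non-RB replicate 1 was 0.87 against a nearest value of 0.16. CHORDC1 of non-RB replicate 1 was at -5.34, with the nearest array at -2.81. AKR1B1 of RB replicate 3 was at 3.77, with the nearest at 5.23. SCD of RB replicate 1 was at 0.62, with the nearest at -0.08. C8H8orf13, a probe of FAM167A, was at -3.48 in RB replicate 4, with the nearest at -2.16.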

How the results depend on the processing

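Over 8 arrays the number of probes passing adjustment was 1, BE667253, with array weights, which gave non-RB replicate 1 a weight of 0.139, and 0 to 1 when each array was left out, the 1 being without non-RB replicate 1. Over 7 arrays it was 0 with only probes above background on every array, quantile scaling, normexp, a removed array surface, the methods' t-test, the slide or scan session block, the replicate block or all 32 arrays in 1 fit, and 0 to 1 when an array was left out, kept without non-RB replicate 3 and lost in the other 6 cases. Unadjusted p under 0.05 over 8 arrays was found for 114 probes with normexp, 1256 with array weights, 358 with the slide block, 382 with the session block, 387 with the replicate block, 351 with all 32 arrays, and 117 (without RB replicate 2) to 420 (without RB replicate 1) leaving out arrays. Over 7 arrays it was 1288 with array weights, 762 with the replicate block, 154 with all 32 arrays and 168 to 675 leaving out the same RB arrays. RB and non-RB arrays of the same number are of different cows, so that block has no design behind it. Interactions gave 0 probes under every alternative. By number, the horns had a smallest adjusted p of 0.614 and 1019 probes under 0.05. Same-numbered CAR and ICAR arrays of this horn correlated over 0.1 in 5 of 8 pairs. The others were non-RB replicates 1 (-0.018) and 2 (-0.105), whose pairs each held an uneven array, and RB replicate 3 (-0.348). Whether these numbers pair was therefore not settled. The share of probes under 0.05 that were higher in RB was 43.8% over 8 arrays and 63.8% over 7; it was 33.3% and 43.6% with quantile scaling, 9.65% and 44.2% with normexp, where the median of all probes over 8 arrays was -0.20, and 45.2% over 7 with the surface removed. Of 1207 alternative values of 58 named probes, 1172 kept their direction and threshold side. Signs changed with normexp for LY6D (-0.00702), SH3BGRL2 (-0.0185), SERPINA3 (-0.38), NR3C1 (-0.0901) and SLC39A14 (-0.0398); with the slide block for PTGS2 (0.20), NR3C1 (-0.19), SLC11A2 (0.47), SLC39A14 (-0.45), HPGD (0.24), SPP1 (-1.25) and CA2 (0.0355); with the session block for PTGS2 (0.0597), NR3C1 (-0.18), SLC11A2 (0.31), SLC39A14 (-0.26), HPGD (0.28), SPP1 (-0.998) and ISG15 (0.00532); and with array weights for PGRMC2 (0.26), SERPINA14 (0.51) and ISG15 (0.14). Leaving out arrays gave -0.63 to 0.0738 for PGRMC2, -0.79 to 0.92 for OXTR, -0.76 to 0.22 for SERPINA14, -0.12 to 1.78 for SPP1 and -0.16 to 0.0288 for ISG15. BE667253 passed at -2.29 with array weights and at -2.27 without non-RB replicate 1. The causes were not tested. Readings near background on some arrays limit TYR, SERPINA3, ETNPPL, BE667253, PIPOX, PRSS2, PRL and ESR1.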
